A study of Mus musculus with 6 samples.

Results

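Esm1 and 7 genes of the vascular endothelial growth factor (VEGF) family were followed in osteoblastic cells of mice that lack the Y1 receptor for neuropeptide Y (Y1KO) and of wild-type (WT) mice. The 8 genes were the proteoglycan gene Esm1, the ligand genes Vegfa, Vegfb, Vegfc, Vegfd and Pgf, and the receptor genes Flt1 and Kdr. Each was read by 1 probe set that carried a single gene symbol, among 19935 genes measured in this way. Esm1 was chosen for its large difference between these genotypes and the others were joined to it with earlier results of the comparison known. The members' differences are therefore given as a description. Where calls of the members are listed, they describe the fit and are not a test of the members.

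The data were 6 single-colour Affymetrix arrays, 2 from Y1KO and 4 from WT mice. The cells were bone marrow stromal cells from femora and tibias of male mice, grown for 7 days in control medium. A GFP transgene, under 3.6 kb of rat type I collagen promoter, was carried by both genotypes and served to sort the cells for RNA. That promoter is active in cells of the osteoblast lineage over a broad range of maturity, so the sort selects by reporter and not by stage. The labels give neither age nor strain, nor how the receptor was removed, nor whether each array is 1 mouse.

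VEGF ligands are secreted dimers that bind receptor tyrosine kinases, mostly on endothelium, and drive the growth of blood and lymph vessels. VEGF-A acts through Kdr (VEGFR2) and Flt1 (VEGFR1), and VEGF-B and placental growth factor (Pgf) bind Flt1. VEGF-C and VEGF-D bind Flt4 (VEGFR3), and processed VEGF-C also binds Kdr. In bone, osteoblast-lineage cells supply VEGF-A to vessels and to bone-resorbing cells. Esm1 encodes endocan, a secreted proteoglycan with a dermatan sulfate chain, best known from endothelial tip cells, where VEGF-A induces it.

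Correlations between arrays, taken across genes that are not independent replicates, were 0.996 between the Y1KO arrays, 0.991 to 0.996 among the WT arrays and 0.976 to 0.987 across genotypes. The probe set of Npy1r, the gene of the Y1 receptor, was dim in both genotypes, at 2.86 ± 0.04 (SD, n = 2) in Y1KO and 2.94 ± 0.15 (SD, n = 4) in WT. It therefore checks the labels neither way. The 8 measured osteoblast markers all lay well above background, with Col1a1 at 13.60 ± 0.03 (SD, n = 2) in Y1KO and 13.42 ± 0.05 (SD, n = 4) in WT. Values here and below are log2 expression. As a gauge of background, 95% of the 1027 olfactory receptor genes lay under 4.48 in Y1KO and under 4.45 in WT. Levels of different genes are not set against each other, since probe sets differ in brightness.

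Esm1 was lower in Y1KO by more than any within-group difference. It read 4.31 and 4.71 on the Y1KO arrays, against 8.0, 8.34, 9.70 and 8.63 on WT replicates 1 to 4. Both Y1KO values lay below all WT values and close to the olfactory receptor background, and WT replicate 3 was the highest. The means were 4.51 ± 0.28 (SD, n = 2) in Y1KO and 8.66 ± 0.73 (SD, n = 4) in WT. The difference, Y1KO minus WT, was -4.15 (SE 0.39, 95% interval -5.04 to -3.26), a ratio of 17.8-fold, which the array understates where Y1KO is near background. In bulk RNA, fewer cells that make a transcript and less transcript per cell cannot be told apart.

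Vegfc, the ligand of lymphatic vessel growth, was the VEGF family member with the largest difference. It read 5.38 and 5.29 in Y1KO, against 7.29, 7.33, 8.62 and 7.50 in WT. The Y1KO arrays lay below every WT array, and WT replicate 3 again stood highest. Means were 5.34 ± 0.06 (SD, n = 2) in Y1KO and 7.69 ± 0.63 (SD, n = 4) in WT, a difference of -2.35 (SE 0.33, 95% interval -3.10 to -1.59) or 5.09-fold. Without WT replicate 3, the difference was -3.81 for Esm1 and -2.03 for Vegfc.

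Vegfa, the main vessel growth factor, did not share this pattern. It read 9.69 and 9.56 in Y1KO, against 9.54, 9.28, 9.28 and 9.50 in WT. Both Y1KO values were above all WT values, the lower of them by little. The difference was 0.23 (SE 0.11, 95% interval -0.02 to 0.48), with means of 9.63 ± 0.09 (SD, n = 2) in Y1KO and 9.40 ± 0.14 (SD, n = 4) in WT.

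Vegfb, a ligand of Flt1, differed by a small amount against very even WT arrays. It read 7.24 and 7.03 in Y1KO, against 7.52, 7.45, 7.53 and 7.54 in WT. The groups did not overlap. The difference was -0.38 (SE 0.09, 95% interval -0.59 to -0.16), or 1.30-fold, and leaving out Y1KO replicate 1 gave -0.48, leaving out Y1KO replicate 2 gave -0.27.

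For Pgf and Vegfd the groups overlapped. Pgf, the other ligand that binds Flt1 alone, read 7.48 and 7.00 in Y1KO, against 7.81, 7.36, 8.33 and 8.11 in WT. WT replicate 2 lay between both Y1KO values. The Pgf difference was -0.66 (SE 0.25, 95% interval -1.23 to -0.10). Vegfd, the ligand closest to Vegfc, read 5.11 and 4.55 in Y1KO, against 5.23, 5.85, 4.76 and 5.10 in WT. Its difference was -0.40 (SE 0.27, 95% interval -1.02 to 0.21), and WT replicate 3, where Esm1 and Vegfc were highest, held the lowest WT value of Vegfd.

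The receptor genes stood little above background in both genotypes. Flt1 read 5.10 and 4.81 in Y1KO, against 4.88, 4.90, 5.19 and 5.10 in WT, with overlapping groups and a difference of -0.07 (SE 0.13, 95% interval -0.35 to 0.22). The Flt1 difference turned to 0.08 without Y1KO replicate 2. Kdr read 4.74 and 4.70 in Y1KO, against 4.42, 4.67, 4.68 and 4.62 in WT. The Kdr groups did not overlap, but only by a narrow margin, and the difference was 0.12 (SE 0.10, 95% interval -0.11 to 0.36).

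**Figure D1:**
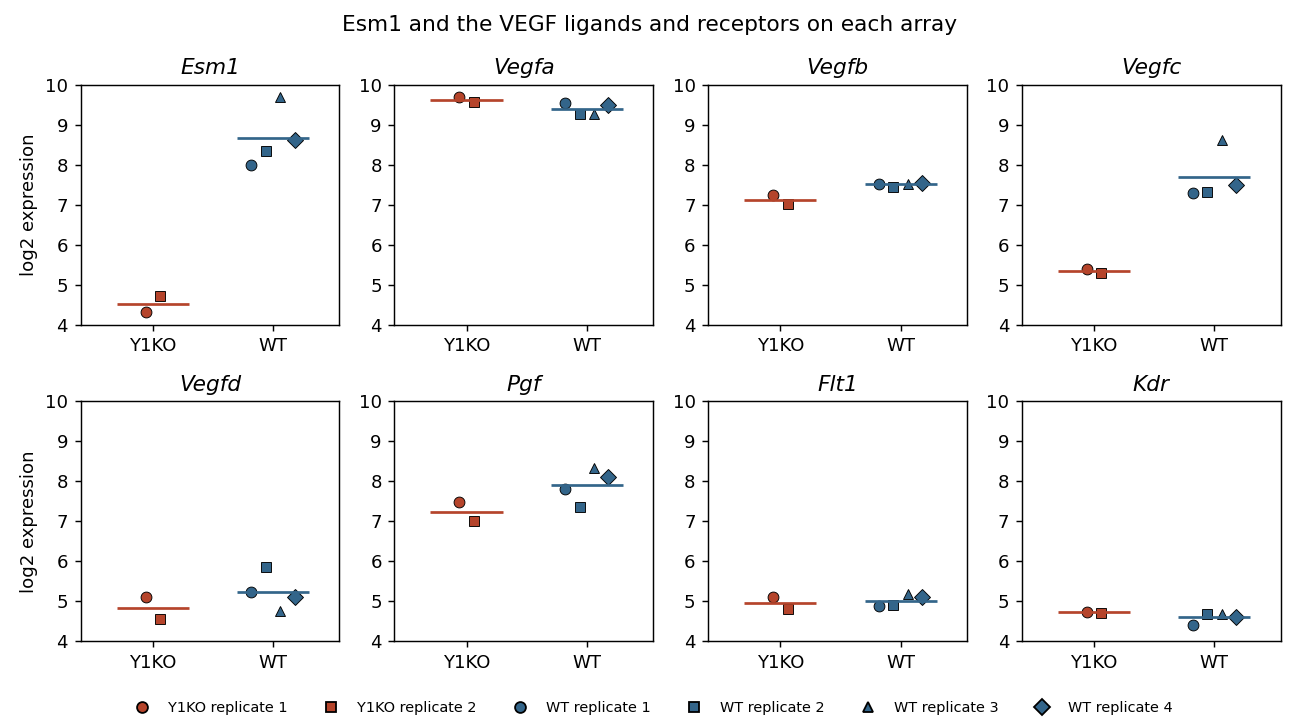
Log2 expression of the 8 genes on each array (y axis), Y1KO left of WT, with one symbol per replicate and a horizontal line at each group mean. Esm1 and Vegfc show wide gaps between the genotypes and a high WT replicate 3, whereas Vegfa, Flt1 and Kdr lie at like levels in both groups.

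Over the 8 genes, 6 were lower and 2 higher in Y1KO. By a linear model fitted across all genes (limma, Benjamini-Hochberg adjusted p under 0.05), 3 were called lower, Esm1, Vegfc and Vegfb, and 0 were called higher. Across all 19935 genes, 12.7% were called, 6.64% as lower and 6.1% as higher. Groups did not overlap for 5 of the 8 genes, against 34.8% of all genes. Of these, 3 were lower and 2 higher in Y1KO, where 17.3% of all genes were lower and 17.5% higher without overlap. The median difference of the 8 was -0.39, beside 0.0071 over all genes. Nothing is read from these counts, because the members were chosen on this comparison. Vegfb was not called with any of Y1KO replicates 1 and 2 and WT replicates 1, 3 and 4 left out, nor after quantile normalization or median centring of the arrays, and without Y1KO replicate 2 Esm1 alone was called. Without WT replicate 2, Pgf was called too.

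**Figure D2:**
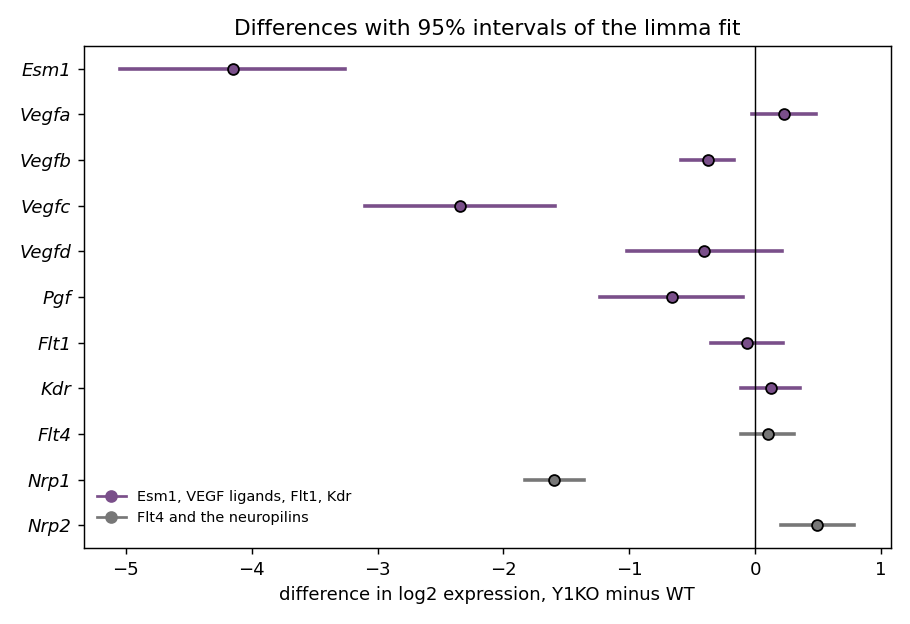
Difference in log2 expression, Y1KO minus WT (x axis), for the 8 genes and for Flt4 and the neuropilins Nrp1 and Nrp2; points are estimates and bars are 95% intervals of the limma fit over 2 Y1KO and 4 WT arrays. Esm1 at -4.15 and Vegfc at -2.35 lie farthest from 0 among the members, and Nrp1 at -1.60 among the co-receptors.

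The variation among the WT arrays does not use the genotype comparison, and here Vegfc ran close to Esm1. Esm1 was the more variable: its WT SD of 0.73 lay at percentile 99.7 of all genes, and that of Vegfc, 0.63, at percentile 99.5. Likeness to Esm1 was measured as the root mean square difference of log2 values over the 4 WT arrays, after each gene's own WT mean was subtracted. This was 0.164 for Vegfc, which placed it at rank 5 of all other genes, where the median gene had 0.659. Pgf ranked 386 and Flt1 1116, and Vegfd was near the far end at rank 19812. The 5 nearest genes outside the family were Cmbl at 0.0996, the aminopeptidase gene Enpep at 0.13, the lipid phosphatase gene Plpp3 at 0.141, the monooxygenase gene Fmo1 at 0.152 and Palmd at 0.165. All 5 were highest in WT replicate 3, as were Esm1 and Vegfc. The likeness rests on 4 arrays and is a description of them.

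WT replicate 3 was high for many genes. Of the 246 genes with a WT SD of at least 0.5, it was the highest array for 127 and WT replicate 2 the lowest for 118. Without WT replicate 3 the SD of Esm1 was 0.32 and that of Vegfc 0.11 (n = 3 each). The mean of 7 adipocyte markers relative to the WT mean was 0.20 in WT replicate 3, the highest of the WT arrays. Much of this came from Adipoq, at 6.51 there and 4.92, 4.56 and 4.83 on WT replicates 1, 2 and 4. The mean of 8 osteoblast markers was 0.30, also the highest, with 0.26 in WT replicate 4. By summed linear signal WT replicate 3 was not the highest. WT replicate 2 led for adipocyte markers (1642 against 1633) and WT replicate 4 for osteoblast markers (37476 against 36833). The part of these markers in the Esm1 and Vegfc values was not tested.

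**Figure D3:**
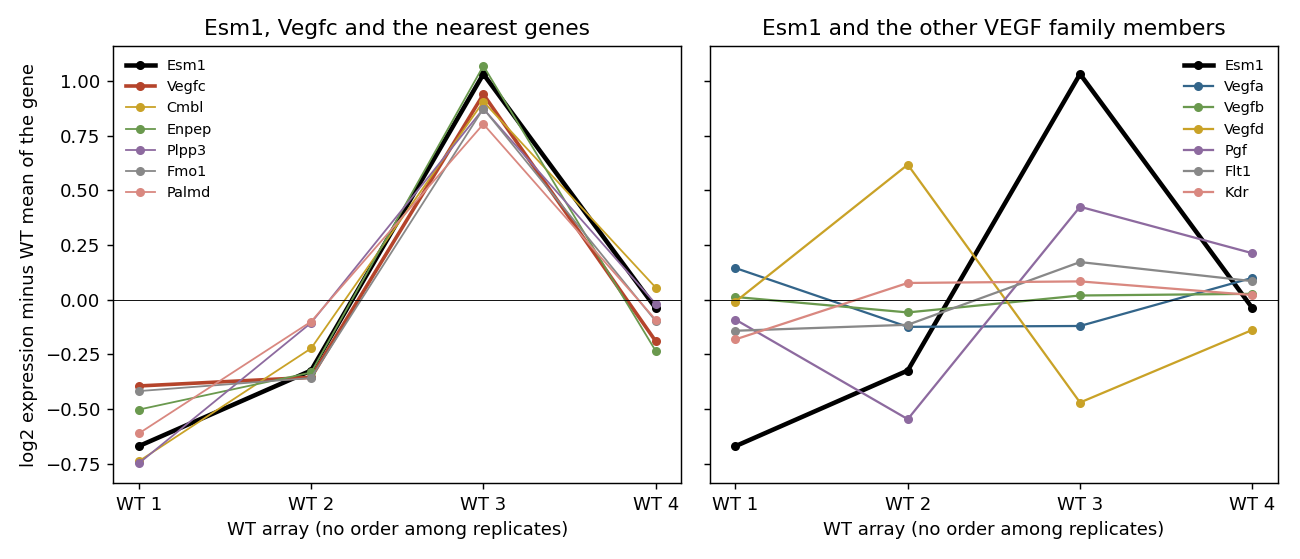
Log2 expression minus the gene's own WT mean (y axis) on the 4 WT arrays (x axis, replicates without order). Left, Esm1 with Vegfc and the 5 nearest genes outside the family, all with their highest value on WT replicate 3; right, Esm1 with the other 6 family members, of which Vegfd runs the other way on WT replicates 2 and 3.

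Over all 6 arrays the genes nearest to Esm1 were those with large differences of the same sign. The 5 nearest were Arrdc4, an alpha-arrestin gene, at a root mean square difference of 0.459, then Cxcl12 at 0.497, Il1rn at 0.507, Plpp3 at 0.522 and Kitl at 0.549. Vegfc, at 0.873, ranked 21, and the median gene had 2.04. Plpp3 was the one gene on both lists of 5. It read 4.86 and 5.17 in Y1KO, against 7.34, 7.98, 8.96 and 8.07 in WT.

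The promoters of Esm1 and Vegfc are shown because these members had the largest differences and like WT profiles, and that of Vegfa, at its upstream start, for contrast. Each sequence holds the 250 bases before the start, from the RefSeq annotation of GRCm38.p6, and capitals mark GGGCGG, the GC box, on either strand.
Esm1 promoter, chr13:113209409-113209658, plus strand: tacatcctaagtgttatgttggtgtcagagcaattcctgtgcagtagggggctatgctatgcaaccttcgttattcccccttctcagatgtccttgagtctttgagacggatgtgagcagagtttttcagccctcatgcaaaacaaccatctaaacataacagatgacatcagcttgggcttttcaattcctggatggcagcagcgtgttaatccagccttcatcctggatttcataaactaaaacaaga
Vegfc promoter, chr8:54077282-54077531, plus strand: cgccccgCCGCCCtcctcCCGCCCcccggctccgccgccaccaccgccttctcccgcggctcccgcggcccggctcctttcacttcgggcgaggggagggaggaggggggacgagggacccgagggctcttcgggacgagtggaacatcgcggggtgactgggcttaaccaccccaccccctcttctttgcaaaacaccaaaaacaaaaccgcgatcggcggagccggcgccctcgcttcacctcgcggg
Vegfa promoter, chr17:46032378-46032627, minus strand: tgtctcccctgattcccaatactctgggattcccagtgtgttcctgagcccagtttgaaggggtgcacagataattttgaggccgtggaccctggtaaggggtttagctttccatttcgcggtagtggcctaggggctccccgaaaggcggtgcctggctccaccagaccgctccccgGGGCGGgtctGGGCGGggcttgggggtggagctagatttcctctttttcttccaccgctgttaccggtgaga
The Esm1 and Vegfc windows differ in base composition. Over 300 bases, from 250 before to 50 after the start, G and C made up 46.3% of the Esm1 window and 70.3% of that of Vegfc, against 62% for Vegfa and a median of 52.7% over 32851 windows of all genes. The Esm1 window held 5 CpG dinucleotides and that of Vegfc 35, where the median was 7. Both strands were searched for GGGCGG, for TGACG, a cAMP response element site core, and for TATAAA, the TATA box. Both were also searched for ACGTG, a form of the hypoxia response element core. The form GCGTG was not searched for over all windows, so no share is given for it. The printed Esm1 promoter holds that string. On one strand or the other, so do the bases before a start of Vegfb, Pgf, Flt1 and Kdr and before a downstream start of Vegfa. GGGCGG occurred in Vegfc, Vegfa, Vegfb, Pgf, Flt1 and Kdr and in 35.7% of all windows. ACGTG occurred in a downstream start of Vegfa alone among the members, overlapping a TGACG, and in 19.6% of all windows. TGACG was also found in Esm1 at position 46 after the start and in Flt1, where 2 overlapping copies form a palindrome, and in 20.8% of all windows. TATAAA was found in Vegfd and Flt1 and in 13.6% of all windows. A match is a string of letters and does not show a bound site.

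The co-receptors moved in opposite directions. Nrp1, neuropilin-1, binds VEGF-A together with Kdr and is also a receptor for class 3 semaphorins, and neuropilin-2 (Nrp2) binds VEGF-C and semaphorins. Nrp1 fell in Y1KO, reading 7.43 and 7.51 there, against 8.89, 9.16, 9.14 and 9.06 in WT. The groups lay far apart, with a difference of -1.60 (SE 0.10, limma adjusted p = 0.000171) or 3.02-fold, and the call held in every setting tried. Nrp2 rose, at 11.42 and 11.43 in Y1KO, against 11.12, 10.66, 10.97 and 10.96 in WT. Its difference was 0.50 (SE 0.13, limma adjusted p = 0.0359), and the call was lost without Y1KO replicate 1 or 2 or WT replicate 3 or 4, with an adjusted p of up to 0.22. Flt4, the receptor of VEGF-C and VEGF-D, was at background, with 4.48 ± 0.06 (SD, n = 2) in Y1KO and 4.38 ± 0.08 (SD, n = 4) in WT, a difference of 0.10 (limma adjusted p = 0.593).

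Of the genes that process VEGF-C and VEGF-D, 3 of 8 rose and 1 fell, with a median difference of 0.34. Over all genes 6.1% rose and 6.64% fell. This list and those below were chosen with earlier results of these data known, so their counts are a description. The secreted precursors are cut by convertases inside the cell and by ADAMTS proteases outside it. Adamts14, a protease closely related to Adamts3, rose by 1.32 (SE 0.24, limma adjusted p = 0.00889). It read 8.21 and 8.63 in Y1KO, against 6.80, 6.69, 7.44 and 7.48 in WT. Adamts3, the main VEGF-C activating protease, rose by 0.45 and the convertase gene Furin by 0.48 (limma adjusted p = 0.00999 and 0.0102). Ccbe1, the secreted cofactor that brings VEGF-C to Adamts3, fell by 0.63, with limma adjusted p = 0.0472. Without Y1KO replicate 1 or 2 the rising genes numbered 1 and 0, and Ccbe1 lost its call when any array other than WT replicate 1 was left out.

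VEGF receptor signalling genes showed no common direction. Of 44 measured, 5 rose and 4 fell, beside 6.1% and 6.64% of all genes, with a median of 0.04. Ptgs2, the cyclooxygenase-2 gene, rose by 1.02 (SE 0.18, limma adjusted p = 0.00836), with 11.35 and 11.06 in Y1KO, against 10.50, 10.23, 9.77 and 10.25 in WT. Pla2g4a, the phospholipase that releases arachidonic acid, rose by 0.82 and the phospholipase C gene Plcg2 by 0.69. Nck2, an adaptor protein gene, fell by 0.87 and Mapkapk3, a kinase downstream of p38, by 0.63. Limma adjusted p for these 4 lay between 0.00247 and 0.00373. Without Y1KO replicate 1 or 2, 2 and 1 genes rose and 2 and 2 fell. Ptgs2 lost its call without either Y1KO array, Nck2 without Y1KO replicate 1 and Plcg2 without Y1KO replicate 2.

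Of 21 genes of endothelial tip cells, the cells in which Esm1 is best known, 8 fell and 1 rose, with a median of -0.13. Over all genes 6.64% fell and 6.1% rose. The list was chosen with earlier results of these data known, so nothing is read from its count. The members that fell include matrix genes that many mesenchymal cells use. Col4a1 and Col4a2, chains of basement membrane collagen, fell by 1.40 and 1.56, and Nid2, which links basement membranes, fell by 0.79. Col4a2 read 7.38 and 7.28 in Y1KO, against 8.69, 8.92, 8.87 and 9.05 in WT. Plxnd1, the semaphorin 3E receptor gene, fell by 1.73 and Mcam, an adhesion molecule of perivascular and endothelial cells, by 1.41. Limma adjusted p for these 5 lay between 0.00025 and 0.00674. The tip cell ligand gene Dll4, with a difference of -0.11, and Apln, with -0.21, did not pass, and both are named after their values were seen. Without Y1KO replicate 1 or 2, 4 and 3 genes fell and 0 rose, while 2 rose without WT replicate 2 or 3. Mcam lost its call without either Y1KO array and Nid2 without Y1KO replicate 2.

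Within the hypoxia-inducible factor (HIF) list, the largest difference was a fall of Epas1. Epas1 encodes HIF-2 alpha, a transcription factor that switches on VEGF genes when oxygen is low. It read 6.30 and 6.32 in Y1KO, against 8.23, 8.57, 9.33 and 8.51 in WT, and WT replicate 3 was the highest, as for Esm1 and Vegfc. The difference was -2.35 (SE 0.25, limma adjusted p = 0.00111), or 5.11-fold, and the adjusted p was up to 0.0251 with 1 array left out. Of 25 measured genes, 1 fell and 2 rose, with a median of 0.19, where 12.7% of all genes were called in either direction. The count is near that share, and nothing is read from it. The genes that rose were P4ha1 and P4ha2, subunits of collagen prolyl hydroxylase, by 1.20 and 0.75 (limma adjusted p = 0.0373 and 0.0278). Their calls were lost without either Y1KO array, that of P4ha1 also without WT replicate 1 and that of P4ha2 without WT replicate 3 or 4. Without WT replicate 2, 4 genes rose.

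Of 22 genes that build chondroitin and dermatan sulfate, the kind of chain endocan carries, 8 rose and 1 fell, with a median of 0.14. The shares over all genes were 6.1% and 6.64%. Chst11, which sulfates chondroitin, rose by 1.06 (SE 0.19, limma adjusted p = 0.00837), with 9.02 and 9.13 in Y1KO, against 8.26, 7.52, 8.21 and 8.07 in WT. The chain polymerising genes Chpf2 and Chsy1 rose by 0.91 and 0.60, and B3gat3, which completes the linker to the core protein, rose by 0.63. Csgalnact1, which starts the chain, fell by 1.24, with 4.52 ± 0.05 (SD, n = 2) in Y1KO, near background, and 5.75 ± 0.38 (SD, n = 4) in WT. Limma adjusted p for these 4 lay between 0.00214 and 0.00964. Without Y1KO replicate 1 or 2 the rising genes numbered 2 and 1 and the falling genes 0 and 0, and without WT replicate 3 the falling genes numbered 3. Chst11, Chsy1 and Csgalnact1 lost their calls without either Y1KO array and B3gat3 without Y1KO replicate 2.

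Other secreted factors that act on vessels were divided, with 7 of 22 falling and 4 rising and a median of -0.34. The shares over all genes were 6.64% and 6.1%. The angiopoietins, ligands of the endothelial receptor Tek, were among those that fell. Angpt1 read 5.75 and 5.46 in Y1KO, against 6.91, 6.96, 7.44 and 6.91 in WT, a difference of -1.45 (SE 0.16, limma adjusted p = 0.00141). Angpt4 fell by 1.74. Hgf, hepatocyte growth factor, fell by 1.39, a size that is approximate because its Y1KO mean, 3.64, lay below background, against 5.03 in WT. Cxcl12, a chemokine of the marrow niche, fell by 3.46, and Sema3a, a repellent ligand of neuropilin-1, rose by 0.73. Limma adjusted p for these 4 lay between 4.23e-05 and 0.00734. Without Y1KO replicate 1 or 2, 4 and 3 genes fell and 0 rose, and 2 rose without WT replicate 2 or 4. Sema3a lost its call without either Y1KO array and Hgf without Y1KO replicate 2.

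**Figure D4:**
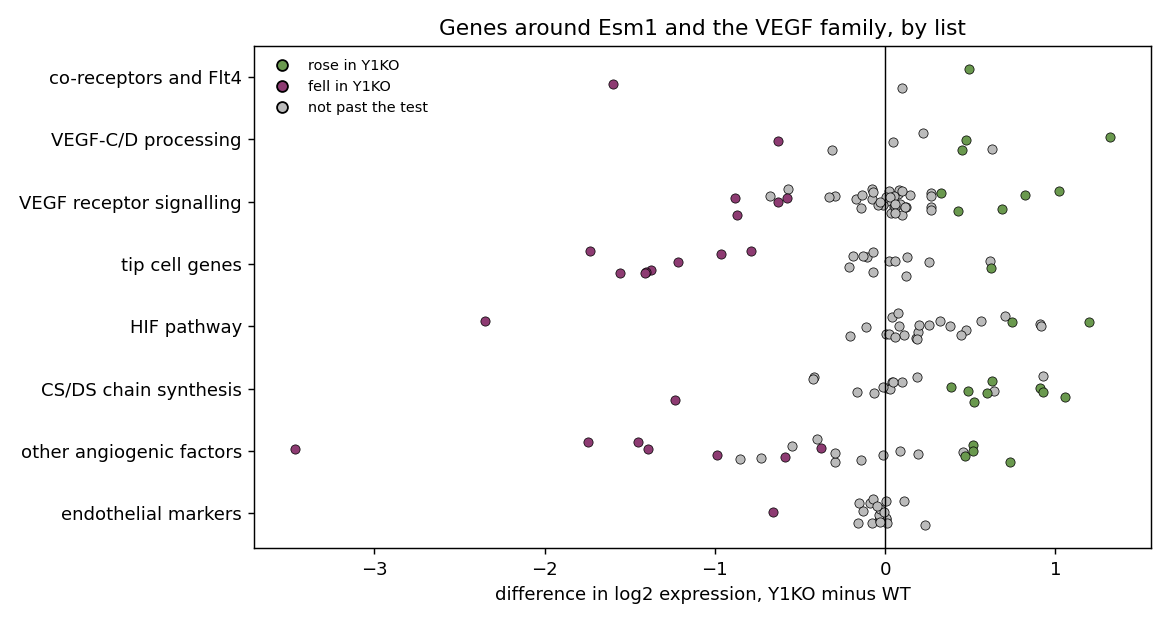
Difference in log2 expression, Y1KO minus WT (x axis), of each measured gene of 7 lists around Esm1 and the VEGF family and of 20 endothelial markers (rows, with vertical jitter). Colours show genes that rose, fell or did not pass the limma test; the endothelial markers gather near 0 apart from Eng at -0.66, and Epas1 at -2.35 and Cxcl12 at -3.46 lie farthest left.

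Many endothelial markers were dim in both genotypes, and few were well above background. Of 20 measured, 10 in Y1KO and 11 in WT exceeded the olfactory receptor background. Of the 20, 1 fell and 0 rose, beside 6.64% and 6.1% of all genes, and the median difference was -0.03. Pecam1 averaged 4.19 ± 0.09 (SD, n = 2) in Y1KO and 4.26 ± 0.26 (SD, n = 4) in WT, and Emcn 3.47 ± 0.17 and 3.50 ± 0.25 in the same groups. The receptor gene Tek averaged 3.66 ± 0.07 in Y1KO and 3.69 ± 0.16 in WT (SD, n = 2 and 4), and these 3 were below that background. Egfl7 averaged 5.89 ± 0.25 in Y1KO and 5.88 ± 0.13 in WT, and Cldn5 5.77 ± 0.08 in Y1KO and 5.76 ± 0.09 in WT (SD, n = 2 and 4), both above it. The marker that fell was Eng, the TGF-beta co-receptor endoglin, which stromal cells also make, by 0.66 (SE 0.15, limma adjusted p = 0.0213). Eng was well above background, at 7.67 ± 0.08 (SD, n = 2) in Y1KO and 8.33 ± 0.24 (SD, n = 4) in WT, and its call was lost without either Y1KO array. The summed linear signal of the 20 was 674 to 718 in Y1KO and 795 to 869 in WT, and without Eng it was 479 to 507 in Y1KO and 462 to 529 in WT, with overlapping groups.

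Among lists for further cell types, those of smooth muscle and pericyte, adipocyte and macrophage markers held called genes, and that of osteoblast markers did not. Over all genes 6.64% fell and 6.1% rose. Of 10 smooth muscle and pericyte markers, 7 fell and 1 rose, and their summed linear signal was 8476 to 9057 in Y1KO and 13924 to 16824 in WT. That sum is weighted to its brightest probe set, that of Acta2. Myl9, Mylk and Pdgfrb fell by 1.60, 1.32 and 1.60, Tagln by 1.13 and Acta2 by 0.50. The marker that rose was the pericyte proteoglycan gene Cspg4, by 1.16 (limma adjusted p = 0.0123), with 9.32 ± 0.0033 (SD, n = 2) in Y1KO and 8.17 ± 0.42 (SD, n = 4) in WT. Of 7 adipocyte markers, 3 fell and 1 rose, with a summed signal of 370.2 to 370.8 in Y1KO and 1110 to 1642 in WT. This sum is weighted to its brightest probe set, that of Lpl, at 7.06 in Y1KO and 9.76 in WT. Adipoq differed by -0.93 (limma adjusted p = 0.266), Plin1 by -0.03 and Cidec by -0.02. These 3 did not pass and are named after their values were seen. The lipase gene Lpl fell by 2.71, the fatty acid binding gene Fabp4 fell by 1.87 and the regulator gene Pparg fell by 1.45, while the fatty acid transporter gene Cd36 passed as higher but averaged 4.45 in Y1KO and 3.51 in WT, below the olfactory receptor background in both. Fabp4 and Cd36 lost the call without Y1KO replicate 2, and Acta2 without either Y1KO array. Of 11 macrophage markers, 7 rose and 0 fell, with a summed signal of 951 to 1501 in Y1KO and 592 to 771 in WT, weighted to Lyz2, the brightest. Among them Lyz2 rose by 0.97, Mpeg1 by 0.94, Adgre1 by 0.81, Tyrobp by 0.65 and Csf1r by 0.57, and all 5 lost the call without Y1KO replicate 2. Lyz2, Tyrobp and Csf1r lost it without WT replicate 4, and Csf1r without WT replicate 1. Ptprc differed by 0.15, Fcgr1 by 0.07, Cd14 by -0.07 and Itgam by -0.0016. These did not pass and are named after their values were seen. Of 8 osteoblast markers, 0 passed the limma test, with 0.63 as the mean difference and 0.59 to 0.67 in Y1KO against -0.57 to 0.30 in WT for their mean relative to the WT mean. The part of these marker differences in the Esm1, Vegfc and list results was not tested.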

How the data were processed

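RNA of sorted osteoblastic cells was measured on 6 single-channel arrays, 2 Y1KO and 4 WT. The authors deposited log2 expression values for 28815 probe sets. The submitters' processing notes name RMA and limma without versions. The genome build was not given in the sources used. Gene symbols came from GEO's annotation of the platform: 21780 had 1 symbol, 1605 several and 5430 none, and 21689 of the first matched RefSeq (GRCm38.p6) by gene identifier. The probe set of highest mean stood for each of 19935 genes. No further normalization was applied. The number of arrays limits the precision.

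Y1KO was compared with WT by limma 3.58.1 in R 4.3.3 (lmFit, eBayes, genotype only, two-sided), with Benjamini-Hochberg adjustment over all genes and a threshold of 0.05; "rose" and "fell" mean called. Differences are Y1KO minus WT in log2. P-values measure the spread between arrays, which may be technical. The code was tested on simulated data. Where 1 Y1KO array is left out, the remaining one is assumed to vary like the WT arrays. Members and lists were chosen with earlier results of these data known. Named genes were the members, Flt4, the neuropilins, Npy1r, up to 5 called genes of smallest p per list, and the 5 nearest to Esm1, leaving out predicted genes. Alternatives were quantile normalization, median centring, a filter at the 40th percentile, the mean of probe sets, trend and robust options, array weights, a replicate block and leaving out each array, and, chosen after seeing the data, no moderation of the variance. Listed genes with no such probe set were not used here.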

Additional observations from a re-analysis of the deposited data

Results flagged for a closer look

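In the WT group of 4, the farthest array was checked for 62 genes named in the text. Its gap to the nearest other array was taken relative to the gene's own WT range. By this measure 6 genes had a single array set apart from the other 3, where chance gives about 1 in 20. No excess is read from this. The genes share the same arrays, and some, such as Enpep, were named for their WT profile. Vegfb read 7.4513 on WT replicate 2, below 7.52 to 7.54 on the others. That gap is small in log2 terms, since the WT SD of Vegfb, 0.04, lay at percentile 4.04 of all genes. Vegfc read 8.6241 on WT replicate 3, above 7.29 to 7.50. WT replicate 3 was also far above the others for Angpt1, at 7.4388, and for Enpep, at 6.9792. WT replicate 2 was far above the others for Tagln, at 11.3071, and far below them for P4ha1, at 9.8979.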

How the results depend on the processing

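The members' differences kept their sign under the alternatives, except Flt1, at 0.08 without Y1KO replicate 2 and 0.06 with the replicate block. With 1 array left out they ran from -4.38 to -3.81 for Esm1, -2.48 to -2.03 for Vegfc, -0.48 to -0.27 for Vegfb, -0.68 to -0.13 for Vegfd, -0.90 to -0.42 for Pgf, -0.21 to 0.08 for Flt1, 0.06 to 0.15 for Kdr and 0.16 to 0.29 for Vegfa. The count of all called genes, 2541, ran from 487 to 2462 with 1 array left out, and that of called members from 1 to 4. Without moderation of the variance 344 genes and 0 members were called (4314 genes at an unadjusted p under 0.05), and 37 of the named genes lost their calls, so most named calls depend on moderation. The share of calls that were higher in Y1KO was 47.9%, and 60.5% with median-centred arrays, which moved the median difference of all genes to 0.067. With 1 array left out, the genes that rose and fell numbered 1 to 9 and 0 to 3 for chain synthesis, 0 to 2 and 3 to 8 for tip cells, 0 to 4 and 1 to 1 for the HIF list, 0 to 4 and 3 to 7 for other factors, 1 to 4 and 2 to 5 for signalling, 0 to 1 and 1 to 1 for co-receptors, and 0 to 4 and 0 to 1 for VEGF-C processing. With array weights, 3 chain synthesis genes and 0 processing genes fell and 2 tip cell genes rose. With median centring 2 tip cell and 5 HIF genes rose and 0 processing genes fell. With the filter 2 tip cell and 4 HIF genes rose, and with quantile normalization 0 processing genes fell. Replicates share only a number: with the replicate block, a fit that pairs by number, 2181 genes were called, 3 chain synthesis, 7 signalling and 2 processing genes fell, and 1 HIF gene and 0 co-receptor genes rose. Under the block Vegfb, Adamts3 and Furin lost their calls; over all alternatives the limma adjusted p ran from 0.00525 to 0.102 for Adamts3 and from 0.00537 to 0.122 for Furin. Deviations of same-numbered arrays from their group means correlated, over genes, at 0.013 for replicate 1 and -0.20 for replicate 2. The causes were not tested. With 2 Y1KO arrays the spread of that group is poorly known, and probe sets near background give approximate differences.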

Other observations

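Further called genes of the lists, named after their values were seen, extended the angiogenic groups. Angpt2, another angiopoietin gene that fell, read 5.25 and 5.45 in Y1KO, against 6.09, 7.01, 6.65 and 6.52 in WT, a difference of -1.22. Adm, a vasoactive peptide gene, fell by 1.37 and the laminin gene Lamb1 by 0.97, while Unc5b, a netrin receptor gene, rose by 0.62. The matricellular gene Ccn2 fell by 0.99, Col18a1, the source of endostatin, by 0.59 and Fgf2 by 0.38 (limma adjusted p = 0.0442 for Fgf2). Serpinf1, which encodes the anti-angiogenic factor PEDF, rose by 0.52, with 11.22 and 11.32 in Y1KO, against 10.65, 10.72, 10.84 and 10.82 in WT. The growth factor genes Fgf1 and Ptn rose as well, by 0.47 and 0.51 (limma adjusted p = 0.0338 and 0.0431). Every gene of this paragraph that rose or fell lost its call without either Y1KO array. Thbs1, an anti-angiogenic thrombospondin gene, had a difference of -0.0094 that did not pass the limma test. Hif1a, the paralog of Epas1, had a difference of 0.024, also not past the test.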
